A study of Solanum virginianum with 36 samples.

Results

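The 150 genes described here were those whose RNA level varied least between leaf libraries of 2 eggplant lines, one resistant and one susceptible to thrips, over a time course of thrips feeding. They were chosen from the deposited count table as the 150 IDs with the lowest standard deviation (SD) of log2(CPM + 1) over all 36 libraries, among the 8484 IDs with a mean of 20 to 500 CPM (counts scaled to library size with TMM factors). They were 1.77% of the IDs in that range. The table held 85443 rows with an ID, of which 33340 had a count in some library. The values that chose the genes are the values shown here, so their low spread is a description and was not tested. Values that the choice did not use come from genes chosen again in part of the libraries and looked at in the rest.

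Leaves were sampled from both lines at 0, 4, 8, 12, 24 and 48 h of thrips feeding, with 3 biological replicates per line and time, which gave 12 groups and 36 libraries. The lines were labelled only as thrip-resistant and thrip-susceptible, the organism as Solanum virginianum, and the series spoke of eggplant. Both lines were grown from seed in a greenhouse and sampled a week after transplanting. Each line was 1 genotype as far as the labels go, and no later unfed leaves were analysed here, so feeding and the time of sampling cannot be told apart. Whether a replicate was 1 plant or a pool was not given in the sources used here.

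Genes of steady level are used as reference genes: in quantitative PCR the level of a gene of interest is divided by that of a reference gene, so a reference that moves with the treatment moves every result. Genes for actin, tubulin, ubiquitin, elongation factor EF1-alpha and GAPDH are the classical choices in plants, and they are known to vary in some tissues and treatments. The files give IDs of the form Sme2.5_ followed by a scaffold and gene number and do not pair them with gene names. Whether a classical reference gene was among the 150 is therefore not known here, and no function can be given for any member. For the same reason the leaf label was not checked against leaf marker genes.

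The libraries held 30629392 to 42391553 counts, and TMM factors ran from 0.803 to 1.20. Replicates differed beyond sampling noise in every group, which does not show whether they came from separate plants. Each library was counted as a sample because the libraries were given as biological replicates. A check of the third resistant library at 48 h used 156 IDs nearly absent from the other resistant libraries and present in the susceptible ones. Of these, 109 had counts in it, at a median of 1.25% of their susceptible level. The IDs were picked by near-absence in the others, which favours counts in this library. No such count is given here for another library, so whether it stood apart was not tested. Chosen without that library, 138 of the 150 genes were the same. The median SD of the original 150 over the remaining libraries was 0.137.

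The steadiest gene was Sme2.5_05396.1_g00002. Its level was 23.2 CPM in the lowest, 26.3 in the median and 30.1 in the highest of the 18 resistant libraries, and 22.6, 25.6 and 29.3 CPM in the susceptible ones. The lines covered almost the same span, and the highest library of all was 1.33-fold above the lowest. Its SD was 0.0939 on the log2 scale. The next was Sme2.5_03043.1_g00004, with 37.7, 41.8 and 49.3 CPM in the resistant line and 33.7, 41.4 and 43.6 CPM in the susceptible line. Its 12 group means spanned 0.19 on the log2 scale, the smallest span among the 150. The third was Sme2.5_00085.1_g00015, at a mean of 100.4 CPM, with 89.5 to 117 CPM in the resistant and 90.2 to 115 CPM in the susceptible line. Its highest library was 1.31-fold above its lowest, the smallest ratio of the 150. Sme2.5_00066.1_g00021 and Sme2.5_07117.1_g00002 followed, at means of 23.8 and 38.1 CPM and SDs of 0.106 and 0.108.

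Across the 150 the SD ran from 0.0939 through a median of 0.138 to 0.152, where the median over all 8484 genes of the range was 0.410. The choice ended without a gap. The last 2 genes inside, Sme2.5_00521.1_g00010 and Sme2.5_09276.1_g00003, had SDs of 0.1513 and 0.1515, and the first 2 outside, Sme2.5_00417.1_g00021 and Sme2.5_02090.1_g00003, had 0.1516 and 0.1517. The highest library of a member was 1.31- to 1.81-fold above its lowest, with a median of 1.51-fold, against a median of 3.25-fold in the range. All 150 stayed within 2-fold over the 36 libraries, as did 1343 of the 8484 genes (15.8%). Within 1.5-fold stayed 71 members and 9 other genes of the range. Group means of a member spanned 1.14- to 1.43-fold, with a median of 1.27-fold, against 2.23-fold in the range.

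**Figure D1:**
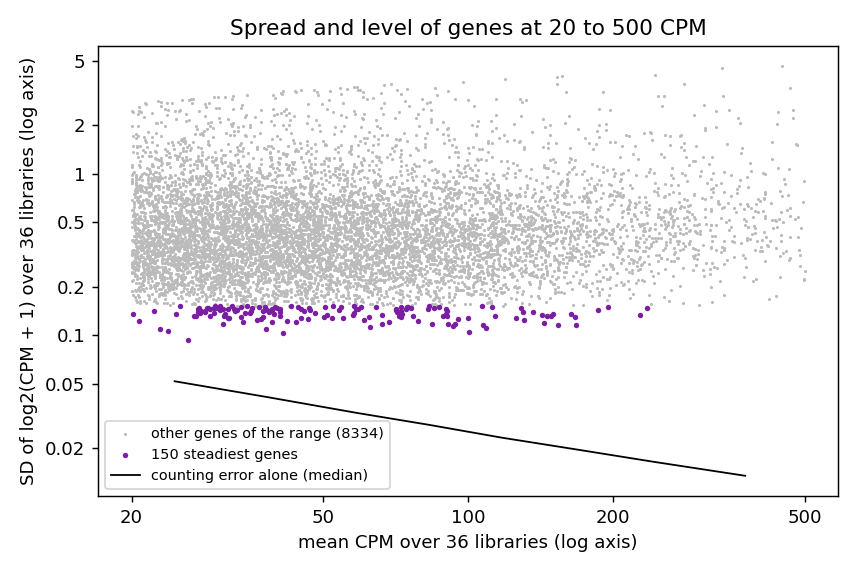
SD of log2(CPM + 1) over the 36 libraries (log axis) against mean CPM (log axis) for the genes of 20 to 500 CPM, with the 150 steadiest in purple and the median counting error alone as a line. The 150 form the lower edge of a continuous cloud whose median SD is 0.410, and lie above the counting error.

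Most members were of moderate level. Of the 150, 76 had a mean of 20 to 50 CPM, 50 had 50 to 100 CPM, 22 had 100 to 200 CPM and 2 had 200 to 500 CPM. These were 1.74, 2.14, 1.78 and 0.368% of the genes in each band. The steadiest of the band from 50 to 100 CPM was Sme2.5_01145.1_g00008, at 49.3 to 69.6 CPM in the resistant and 54.5 to 70.5 CPM in the susceptible line. In the highest band the steadier of the 2 was Sme2.5_00341.1_g00012, with 208, 237 and 271 CPM as the lowest, median and highest resistant values and 181, 219 and 247 CPM in the susceptible line. The members' mean counts per library ran from 735 to 8618. Counting alone would give an SD of 0.0157 to 0.0535 at these counts, and it made up a median of 6.39% of a member's variance.

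**Figure D2:**
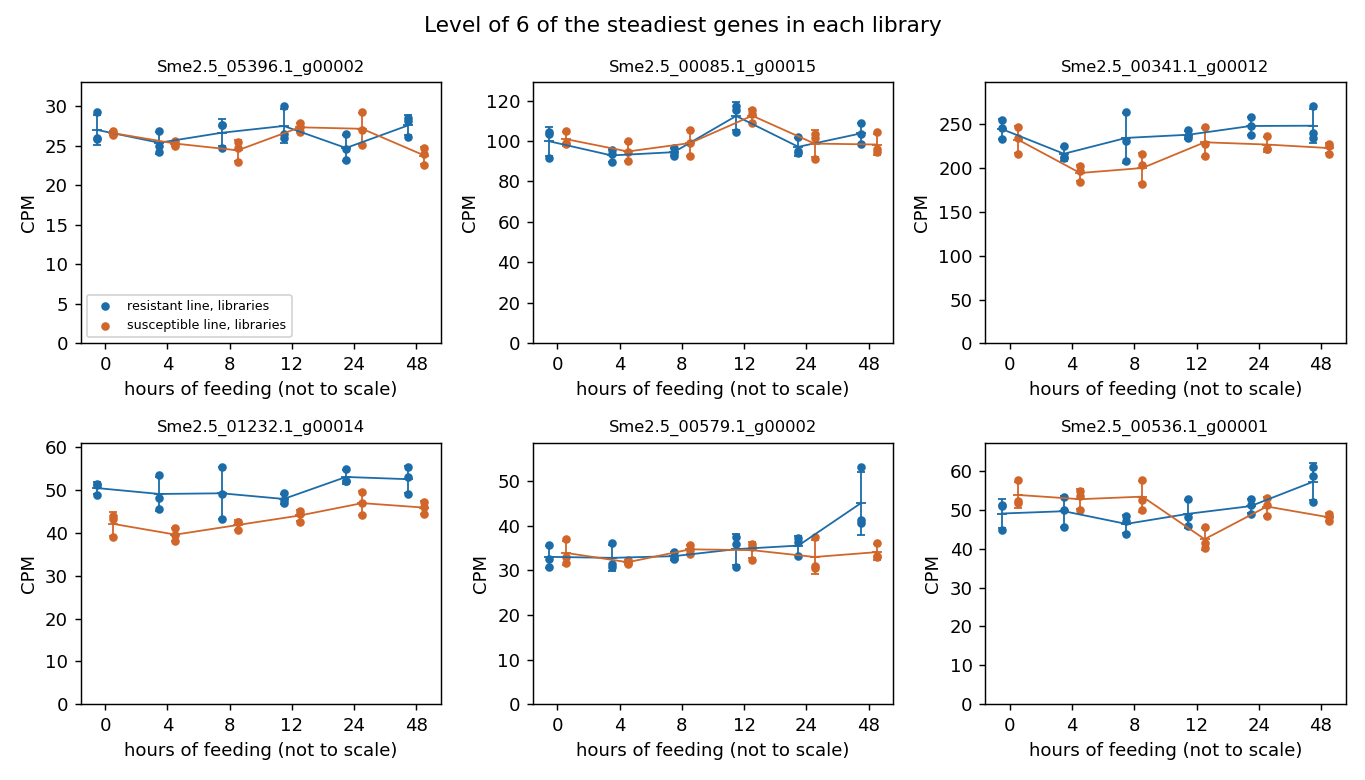
Level in CPM with TMM factors of 6 members against hours of feeding (not to scale), with a point per library, lines through the group means and bars of 1 SD (n = 3), resistant in blue and susceptible in orange. Sme2.5_05396.1_g00002 stays between 22.6 and 30.1 CPM, and Sme2.5_00579.1_g00002 is highest in the resistant libraries at 48 h.

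The small variance of these genes was divided between line, time within line, and replicates. Medians over the 150 were 6.86% for the line, 45.8% for time and 42.1% for replicates, and over the genes of the range 16.6, 48.7 and 24.4%. Replicates took the largest share in 61 members, time in 84 and the line in 5. The residual SD between replicates of a group had a median of 0.105 in the members and 0.230 in the range. No member had lines that did not overlap, against 485 genes of the range (5.72%). The SD within a line had a median of 0.136 in the resistant and 0.121 in the susceptible libraries, against 0.350 and 0.304 in the range. The lowest group mean was most often that of the susceptible line at 4 h, in 31 members (20.7%, against 9.7% of the genes of the range). The highest was most often that of the resistant line at 48 h, in 18 (12%, against 15.6% of the range), followed by the resistant line at 0 h, in 17 (11.3%, against 8.91%). The mean log2 level over the 150, taken from the same values, was lowest in the susceptible line at 4 h, at 5.75 ± 0.02 (SD of 3 libraries). In the resistant line at 4 h it was 5.76 ± 0.02. It was highest in the resistant line at 0 h and 48 h, at 5.81 ± 0.02 and 5.81 ± 0.03.

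**Figure D3:**
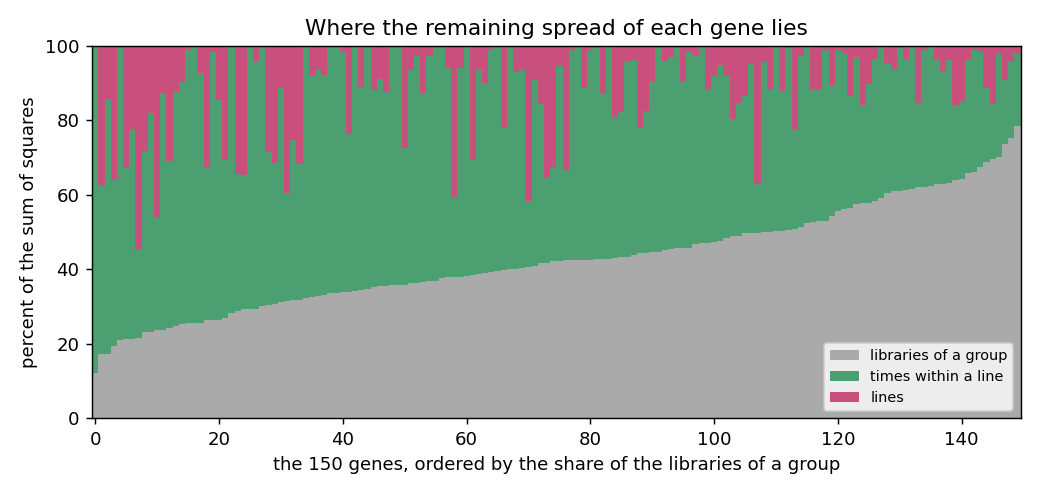
Share of each member's sum of squares, in percent, between libraries of a group (grey), between times within a line (green) and between lines (red), with the 150 members ordered by the grey share. The medians are 42.1, 45.8 and 6.86%.

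Between the lines the members differed by at most 1.15-fold in the fit. By edgeR's quasi-likelihood test with Benjamini-Hochberg adjustment over all 23719 genes tested, 58 of the 150 differed between lines averaged over times (38.7%), where 69% of all genes tested were called. Of the 58, 27 were higher in the resistant line (32.2% of all genes) and 31 in the susceptible line (36.7% of all genes). Since the same libraries chose the genes, nothing is read from these counts. Fitted line differences of the 150 ran from -0.21 to 0.20 (log2). Sme2.5_01232.1_g00014 was the member highest in the resistant line, with 43.3, 50.2 and 55.4 CPM as lowest, median and highest there and 38.0, 43.6 and 49.6 CPM in the susceptible line. The ranges overlapped, and the difference was 0.20 ± 0.03 (log2, SE). Sme2.5_09276.1_g00003 was the member highest in the susceptible line, with 24.2, 28.6 and 34.0 CPM in the resistant and 29.5, 32.1 and 37.7 CPM in the susceptible line. The difference was -0.21 ± 0.04 (log2, SE), again with overlapping ranges. Next to these, Sme2.5_00027.1_g00017 differed by 0.16 ± 0.03 and Sme2.5_04660.1_g00002 by -0.20 ± 0.03. In bulk leaf, fewer cells of a type and less RNA per cell cannot be told apart in any such difference.

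Over time, 42 of the 150 were called in the resistant line (28%), where 43.2% of all genes tested and 66.1% of those of 20 to 500 CPM were called. In the susceptible line 26 were called (17.3%), where 33.6% of all genes tested and 51.7% of those of 20 to 500 CPM were. Here too the choice used the contrast and nothing is read from the counts. They moved widely with the fit and the scale. In the resistant line they ran from 11 with the 18 libraries of that line alone (36.3% of all genes called) to 84 of the 112 with FPKM by limma (53%). In the susceptible line they were 10 with no filter on low counts (21.4%) or without the 8 and 12 h libraries (23.1%). There they reached 63 of 112 by limma (46.4%), with 56 of 150 by DESeq2 (43%). The FPKM carry no TMM factors, while the members were chosen for a low spread with those factors. The count for the susceptible line fell to between 13 and 17 without any 1 of 10 libraries: the second of 0 h, any of 4 h, the second of 8 h, the third of 12 h, the second or the third of 24 h, and the first or the second of 48 h. In the resistant line Sme2.5_00579.1_g00002 had 30.8, 35.8 and 32.5 CPM at 0 h and 40.6, 53.2 and 41.3 CPM at 48 h. All libraries at 48 h lay above all at 0 h, and the change was 0.47 ± 0.11 (log2, SE). The second library at 48 h was the highest, and without it the change was 0.31 and the time course of this gene was no longer called. With limma on log2(FPKM + 1) the change was 0.21 and the time course was not called either. In the susceptible line it had 33.1, 33.1 and 36.1 CPM at 48 h. Sme2.5_05225.1_g00006, the most abundant member, had 238.5, 281.2 and 280.6 CPM at 0 h and 213.6, 193.4 and 194.3 CPM at 8 h in the resistant line, a change of -0.41 ± 0.10 (log2, SE) with no overlap.

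At single times against 0 h, the resistant line had 13, 8, 12, 2 and 15 members called after 4, 8, 12, 24 and 48 h, where 13.3, 12.2, 20, 8.7 and 23.1% of all genes were called. Of the 15 at 48 h, 12 were higher and 3 lower than at 0 h, where 11.5% of all genes were called higher and 11.6% lower. All 8 called at 8 h were lower, where 5.12% of all genes were called higher and 7.08% lower. The mean log2 level of the 150 at 8 h differed from that at 0 h by -0.04, and nothing is read from these directions. The susceptible line had 9, 8, 5, 5 and 3 called, where 7.62, 13.3, 11.2, 7.04 and 9.31% of all genes were. The widest changes of a member at a single time were -0.41 and 0.47 (log2), each with a standard error near 0.10.

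In the susceptible line Sme2.5_05955.1_g00002 had 52.5, 46.4 and 53.1 CPM at 0 h and 72.8, 70.1 and 64.0 CPM at 48 h. The groups did not overlap, and the change was 0.45 ± 0.10 (log2, SE). Sme2.5_00536.1_g00001 had 52.2, 51.7 and 57.5 CPM at 0 h and 45.7, 41.5 and 40.1 CPM at 12 h, a change of -0.36 ± 0.08 (log2, SE), again without overlap. That time course was no longer called without the third susceptible library at 12 h, or with no filter on low counts. Sme2.5_00085.1_g00015, the third steadiest, had its highest group mean at 12 h in both lines, 112 ± 6.85 CPM (resistant) and 112 ± 3.20 CPM (susceptible), as mean and SD of 3 libraries. By edgeR its time course was called in the resistant line and not in the susceptible line, and the resistant call was lost in 27 of 42 alternatives. The other 4 of the 5 steadiest genes were called over time in neither line. Of these 4, Sme2.5_00066.1_g00021 was called by edgeR for a line difference (adjusted p 0.032). Of the genes named as steadiest of a CPM band, Sme2.5_01145.1_g00008 was called for line (adjusted p 0.033). Sme2.5_00341.1_g00012 was called for line (adjusted p 0.0049) and over time in the susceptible line (adjusted p 0.043). Of the 150, 55 were called in none of the tests for time in either line, line or interaction, 65 in 1 of them, 23 in 2 and 7 in more. Those in none were 36.7% of the members, against 7.8% of the genes of 20 to 500 CPM and 15.3% of all genes tested, and the choice used the same libraries.

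In the test of whether the lines changed differently over time (line by time interaction), 6 of the 150 were called (4%), where 14.4% of all genes tested and 24% of those of 20 to 500 CPM were. At single times edgeR called 0 members at 4, 8, 12, 24 and 48 h, where 0.27, 1.26, 1.71, 0.228 and 0.721% of all genes were called. At an unadjusted p under 0.05 the members numbered 14, 13, 14, 10 and 14, where 12.5, 15, 17.3, 9.76 and 14.8% of all genes were below it. The count was 10 without the first resistant library at 4 h. It was 3 without any 1 of 10 others: in the resistant line the second or the third at 8 h, the third at 24 h, or the second or the third at 48 h, and in the susceptible line the first at 8 h, the third at 12 h, the second at 24 h, or the first or second at 48 h.

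Values that the choice did not use came from repeating it in 1 line and looking at the other. Of the 150 genes chosen in the 18 resistant libraries alone, 147 had a mean of 20 to 500 CPM in the susceptible libraries. Their median SD there was 0.141, where all genes of 20 to 500 CPM there had a median of 0.306. Of the 150, 89 (59.3%) were among the steadiest 10% of that range, and 2 of the 147 were above its median. Of the 150 chosen in the susceptible libraries, 146 were in that range in the resistant ones. Their median SD there was 0.158, against 0.348 in the range. Of the 150, 78 (52%) were among the steadiest 10%, and 4 of the 146 were above the median. Steadiness in 1 line thus went with steadiness in the other for most, but not all, of the genes chosen. The highest SD in the line not used was 0.402 among the 147 chosen in the resistant line and 0.854 among the 146 chosen in the susceptible line. The SDs of chosen genes whose mean left the range there were not looked at.

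In a fit of the susceptible libraries alone, edgeR called 36 of the 150 genes chosen in the resistant line over time (24%), where 38.5% of all genes tested and 55.3% of those of 20 to 500 CPM were called. Without the second susceptible library at 24 h the count was 21. In the resistant libraries alone, 29 of the 150 chosen in the susceptible line were called (19.3%), where 36.3% of all genes and 52.8% of those of 20 to 500 CPM were called. That count was 12 without the second resistant library at 8 h, 15 without the third at 12 h or the second at 48 h, and 19 without the second at 4 h, the third at 24 h or the third at 48 h. Both shares were below those of the range, and the difference in share was not itself tested. The counts depended on the tool: DESeq2 called 82 of the genes chosen in the resistant line (54.7%), where it called 51.9% of all genes and 69.3% of the range, and 69 of those chosen in the susceptible line (46%), where it called 52 and 68.5%. With no filter on low counts edgeR called 19 and 17, where 50.1 and 47.1% of the range were called. Without the 8 and 12 h libraries it called 23 and 3, where 41.6 and 28.1% of the range were called.

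Repeating the choice without all libraries of 1 replicate number gave 132, 134 and 137 of 150 genes among the steadiest 10% in the 12 libraries left out. The median SDs there were 0.140, 0.152 and 0.157, against 0.381, 0.424 and 0.425 in the range, and no gene was above the median of the range. These SDs are over 12 libraries and those between lines over 18, so the shares are not set against each other.

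**Figure D4:**
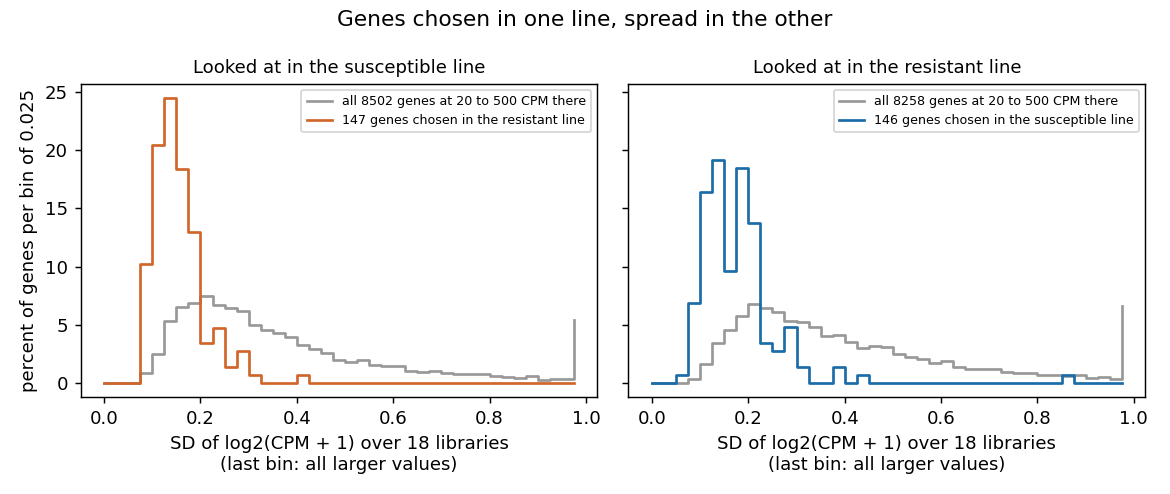
Percent of genes per bin of SD of log2(CPM + 1) in the 18 libraries of the line that the choice did not use, for the genes chosen in the other line (coloured) and all genes of 20 to 500 CPM there (grey), with all larger values in the last bin. The chosen genes with a mean of 20 to 500 CPM there (147 and 146) have medians of 0.141 in the susceptible and 0.158 in the resistant line. All genes have 0.306 and 0.348.

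The 2 lists made in single lines shared 33 genes of 150 each. Of these 33, 15 were among the 150 chosen over both lines and 18 were not, and those 18 differed between lines by 0.22 to 0.77 (log2, either direction). An example, chosen after its values were seen, is Sme2.5_00657.1_g00002, with a mean of 107 CPM in the resistant and 62.2 CPM in the susceptible line and SDs within them of 0.110 and 0.0905. It was steady over time in each line and had a different level in each. Of the 150 chosen over both lines, 46 were in the resistant list, 44 in the susceptible list and 75 in neither.

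Members showed no common course over the libraries that held for most pairs. Over the 36 libraries the correlation between 2 members had a median of 0.0356 and ran from -0.746 to 0.750, as a description of values that share libraries and TMM factors. The first principal component held 14.6% of their variance, against 41.0% for the genes of the range. A choice for low spread also limits shared variance, so nothing is read from this contrast. Scores on that component of the members ran from -0.602 to 1.45 in the resistant libraries. In the susceptible ones they ran from -1.18 to 0.153, so most resistant libraries lay above the susceptible span. Within it lay the first resistant libraries at 0 and 4 h and all resistant libraries at 8 h. The same libraries chose the members, so this is a description. The SD of the log2 ratio of 2 members had a median of 0.188 over 11175 pairs. It was lowest for Sme2.5_03413.1_g00004 and Sme2.5_02118.1_g00001, at 0.0944, with a correlation of 0.659, and this ratio ran from -0.88 in the third resistant library at 12 h to -0.49 in the second at 4 h. GeNorm's M is the mean SD of a gene's log2 ratio to each other member. It was lowest for Sme2.5_05396.1_g00002, at 0.165, and the highest M was 0.207. It was taken among the members alone and follows largely from each gene's own SD, which chose them, so it is not a separate measure.

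The mean level of several members had a smaller spread than single members. The mean log2 level of the 2 steadiest had an SD of 0.0684 over the 36 libraries, that of the 3 steadiest 0.0625, of 5 0.0457, of 10 0.0397, of 20 0.0369 and of 50 0.0254. The mean of all 150 had an SD of 0.0279, above that of the steadiest 50, and a span of 0.106, or 1.08-fold, from the second susceptible library at 4 h to the second resistant library at 48 h.

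The members were chosen for a low spread with TMM factors, so their mean level had to follow those factors on scales without them, and the values there are a description of the scales. Without TMM factors, the mean level of the 150 had an SD of 0.138 and spanned 1.45-fold. In the deposited FPKM (fragments scaled to gene length and library size), which held 112 of the 150, the mean of log2(FPKM + 1) had an SD of 0.135 and spanned 1.42-fold. Relative to 0 h, it differed in the resistant line by 0.12, 0.13, -0.00, -0.19 and -0.21 at 4, 8, 12, 24 and 48 h. The median FPKM of all genes of the range differed there by 0.14, 0.17, 0.06, -0.13 and -0.17. In the susceptible line the members differed by 0.09, 0.18, 0.10, -0.02 and -0.16, and the range by 0.13, 0.22, 0.13, -0.03 and -0.13. Mean TMM factors went from 1.11 at 8 h to 0.863 at 48 h in the resistant line and from 1.15 at 8 h to 0.891 at 48 h in the susceptible line. Whether the bulk or the members were constant per cell was not measured.

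**Figure D5:**
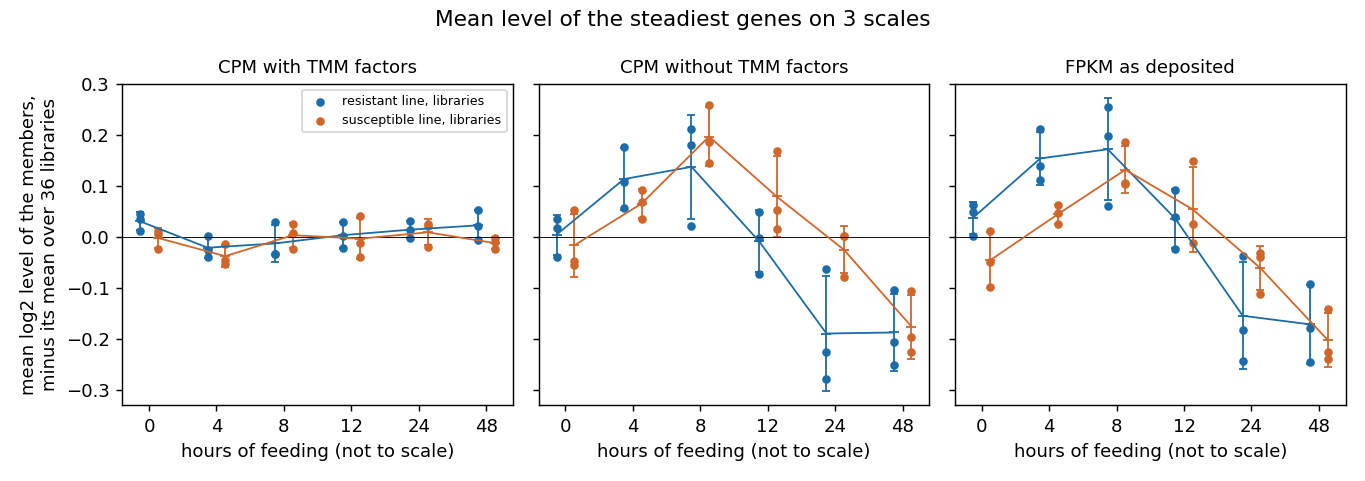
Mean log2 level of the members in each library minus its mean over the 36 libraries, against hours of feeding (not to scale), with TMM factors, without them and in deposited FPKM. Points are libraries, lines join group means and bars are 1 SD (n = 3). With TMM factors the values span 0.106, and on the other scales both lines are lowest at 24 or 48 h.

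The files also give each gene's scaffold and, where FPKM exist, its relative length. Only scaffold Sme2.5_00127.1 held 2 members, Sme2.5_00127.1_g00005 and Sme2.5_00127.1_g00013, whose levels had a correlation of -0.122. A gene's count divided by its FPKM is proportional to its length. On that measure, relative to the median of the range, the 112 members with FPKM had a median of 1.21 (quartiles 0.867 and 1.74), against 0.999 (0.702 and 1.39) for 6135 other genes of the range. Per length, their level was close to that of the others, with a median of 18.5 FPKM against 20.8 FPKM.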

How the data were processed

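Leaf RNA was made into libraries with a SMARTER mRNA-Seq kit, per the labels' protocols. Per the submitters' processing notes the tools included HTSeq 0.6.1 and FastQC. The aligner and genome build were not given in the sources used here. The deposited counts are whole numbers that behave as estimated counts rounded up: in 10257 IDs with a steady ratio to FPKM, 90.6% of values from 1 to 5 fitted. The deposited FPKM were used as the authors gave them, for 65535 of 89388 rows. Rows without an ID held 4.46 to 7.28% of counts and were left out. CPM used TMM factors. Tests were edgeR's (4.0.16, R 4.3.3) quasi-likelihood tests after filterByExpr, over all groups, with Benjamini-Hochberg adjustment at 0.05. Their p-values set a difference against the spread between libraries of a group, estimated over the groups fitted. They do not cover the spread between genotypes. Alternatives used limma (3.58.1) and DESeq2 (1.42.0), other scalings, pseudocounts and filters, a replicate block, and each library left out. The code of the choice rule and the fit was run on simulated data in which 150 genes were given less spread than all others. The real genes show no such gap, so that run checks the code and not the choice. Named genes were the 5 steadiest, the steadiest of each CPM band, the genes next to the last rank, and the extremes among called members. The members, lists and rules were chosen with earlier results of these data known.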

Additional observations from a re-analysis of the deposited data

Results flagged for a closer look

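The test of a different time course in the lines called 6 of the 150 members. Of the members named by rule, 2 were among them. For Sme2.5_00536.1_g00001 the change from 0 h to 48 h was higher in the resistant line by 0.40 (log2), with 51.0, 51.3 and 44.8 CPM at 0 h and 51.9, 61.0 and 58.6 CPM at 48 h in the resistant line. The susceptible line had 52.2, 51.7 and 57.5 CPM at 0 h and 49.0, 47.0 and 48.1 CPM at 48 h. The resistant values were thus higher and the susceptible values lower at 48 h than at 0 h, in each line without overlap. Its interaction call was lost in 9 of 42 alternatives: without the second resistant library at 12 h, the second or the third at 48 h, the third susceptible library at 12 h, or the first or the second at 48 h, with no filter on low counts, without the 8 and 12 h libraries, and with limma on FPKM. For Sme2.5_00521.1_g00010 the change from 0 h to 4 h was higher in the resistant line by 0.36 (log2), and its interaction call was lost in 31 of 42 alternatives. Neither gene was called for a different change between the lines (interaction) at a single time. The same libraries chose both genes. Outside the comparisons, rows without an ID also held steady entries: 13 of 539 such rows with a mean of 20 to 500 CPM had a lower SD than the last member, the lowest being 0.107.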

How the results depend on the processing

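Of the 150 members, 48 were kept without TMM factors and 92 without the 8 and 12 h libraries. In the resistant and susceptible line alone 46 and 44 were kept, and leaving out 1 library kept 132 to 147. Of the 112 with FPKM, 44 were kept in deposited FPKM and 91 in FPKM with TMM factors. The choices in FPKM took 150 of the 6247 genes of the range with FPKM, not of all 8484, which is a looser cut. Median SDs given here are those of the original 150 members (112 in FPKM), not of genes chosen again. The median SD was 0.191 without TMM factors, 0.185 in FPKM and 0.127 with a pseudocount of 5. It was 0.132 without 8 and 12 h and 0.124 in the susceptible line alone (0.136 to 0.140 leaving out 1 library). The group spread of the mean level, 0.0190, was 0.130 without TMM factors and 0.127 in FPKM (0.0176 to 0.0214). With no filter on low counts the calls over time were 22 (resistant) and 10 (susceptible), the interaction calls 2 (28, 21.4 and 7.46% of all genes called), and the calls in the line not used 19 and 17 for genes chosen in the resistant and susceptible line. Without 8 and 12 h these were 18, 10, 1, 23 and 3, and the line calls 38 (29.2, 23.1 and 1.96% of all genes for time and interaction, 63.3% for line). With only the 18 libraries of the line the time calls were 11 and 17 (36.3 and 38.5% of all genes), and with limma on FPKM 84 and 63 of 112 (53 and 46.4%), against 33 and 18 of those by edgeR. DESeq2 gave 56 susceptible time calls (43% of all genes called), 21 interaction calls (30.5%), and 82 and 69 in the line not used (51.9 and 52%). Leaving out 1 library gave 29 to 44 and 13 to 30 time calls, 48 to 62 line calls, 3 to 10 interaction calls, and 21 to 41 and 12 to 40 in the line not used. The limma counts are on a scale without the TMM factors with which the members were chosen. The cause of the changes in these counts was not tested. Whether replicate numbers paired the libraries was not settled. Residuals of the same number had a median correlation of 0.0154 (-0.369 to 0.506), against -0.00664 for other numbers. Of the 36 libraries, 15 correlated best with their own number. With the replicate block the median SD was 0.132, and the calls were 42 and 26 over time, 60 for line, 6 for interaction (43.5, 33.5, 69.1 and 14.9% of all genes), and 26 and 30 in the line not used. The 13 differences of named members that were recomputed kept their direction; the calls of Sme2.5_00521.1_g00010 and Sme2.5_00536.1_g00001 (interaction), Sme2.5_00085.1_g00015 (time) and Sme2.5_00341.1_g00012 (line) were lost in 31, 9, 27 and 3 of 42 alternatives, and the time calls of Sme2.5_00579.1_g00002 and Sme2.5_00536.1_g00001 in 2 of 43 and 2 of 42. Counting error limits members near 20 CPM most.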
